A study of Saccharomyces cerevisiae with 4 samples.

Results

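The core and variant histone genes of Saccharomyces cerevisiae were examined in a mid2 mutant after caspofungin. They are 10 genes chosen by systematic name, of 6207 genes in the deposited table: HTA1 (YDR225W) and HTA2 (YBL003C) for H2A, HTB1 (YDR224C) and HTB2 (YBL002W) for H2B, HHT1 (YBR010W) and HHT2 (YNL031C) for H3, HHF1 (YBR009C) and HHF2 (YNL030W) for H4, HTZ1 (YOL012C) for the variant H2A.Z, and HHO1 (YPL127C) for the linker histone H1. RefSeq gives the same symbol for 10 of the 10 systematic names. Cells of the BY4741 background lacking MID2, whose product sits in the plasma membrane and senses cell wall stress, grew at 24 °C in rich YEPD medium. Part of each culture received 15 ng/ml caspofungin, an antifungal drug that blocks synthesis of the main wall glucan, for 2 h, and the other part stayed untreated. Both RNAs thus carry the mid2 mutation, and no strain with MID2 is among these samples. RNA of 2 cultures was hybridised to 4 two-colour arrays with the dyes swapped. Caspofungin RNA was labelled with Cy5 for arrays 2 and 4, and with Cy3 for arrays 1 and 3. Which of the arrays belong to the same culture is not stated.

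Each array gives 1 log2 ratio per gene, so neither condition's transcript level can be read from it, and levels of different histone genes cannot be ranked. A positive ratio is likely higher with caspofungin and a negative one lower. That reading rests on the labels, which describe the comparison as treated against non-treated, and on ratios of the stress gene HSP12, which were positive in both dye orientations: 4.73, 3.14, 3.63 and 4.08 on arrays 1 to 4. The direction is not stated outright, and HSP12 is 1 gene. Over genes with all 4 values, arrays of opposite dye orientation had Spearman correlations of -0.33, -0.21, -0.22 and -0.12 as deposited. Their Pearson correlations ran from -0.15 to 0.14. If the deposited ratios follow the dyes, arrays 1 and 3 would have to be turned, and those values are given below as the turned reading. Turning reverses the signs of these correlations. Other genes also kept large means over both orientations, such as YHR087W at 2.53 as deposited and -0.05 turned. Others did the reverse, such as YIL105C at 0.09 as deposited and -1.74 turned. Ratios were present for 3215, 4346, 3228 and 3538 genes on arrays 1 to 4, and 2925 genes had all 4. MID2 was blank on every array, so its ratio does not test the genotype.

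Histones package DNA: H2A, H2B, H3 and H4 form the nucleosome core, H1 binds the linker DNA, and H2A.Z replaces H2A in nucleosomes that flank many promoters. Budding yeast makes core histone mRNA mainly in S phase, when new DNA must be packaged. Swi4, Spt10 and Spt21 promote this transcription, and the HIR complex represses it outside S phase for many, not all, of the core genes. The 8 core genes lie in 4 pairs of divergent neighbours with a shared upstream region: HTA1 with HTB1 on chromosome IV, HTA2 with HTB2 and HHT1 with HHF1 on chromosome II, and HHT2 with HHF2 on chromosome XIV. RefSeq annotates 0 protein-coding genes between the members of each pair. Paralogues encode identical or nearly identical proteins from similar coding sequences, so arrayed probes for HTA1 and HTA2, HTB1 and HTB2, HHT1 and HHT2, or HHF1 and HHF2 may share signal, and values of single paralogues are uncertain for that reason.

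Of the 10 histone genes, 9 had values on all 4 arrays and were tested; their ratios were small and, on average, negative, as were those of most genes. HTB1, with 2 values, is described apart. All 9 means were negative, from -0.44 for HHO1 to -0.13 for HHT2, beside 73% of the 2925 genes with a negative mean. Their median was -0.16, against -0.13 over all 2925 genes. Past an adjusted p of 0.05 were 0 of the 9 (limma on culture means, larger p of the pairings that join arrays of opposite dyes), beside 0.0342% of all genes, which is 1 gene, HSP12 (adjusted p = 0.0196). At an unadjusted p under 0.05 there was 1 histone gene, HHO1, beside 25.3% of all genes in either direction and 18.5% with negative means. The widest 95% intervals of the 9 genes ran from -0.69 to 0.31, so none reached a 2-fold difference in these ratios, which is 1 on the log2 scale. These intervals are not adjusted for the number of genes and take the deposited centring of each array as given. A permutation of signs over the 2 cultures, the replicates of the fit, could not give an exact two-sided p below 0.5. Over 4 arrays, which are not independent, it could not give one below 0.125.

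**Figure D1:**
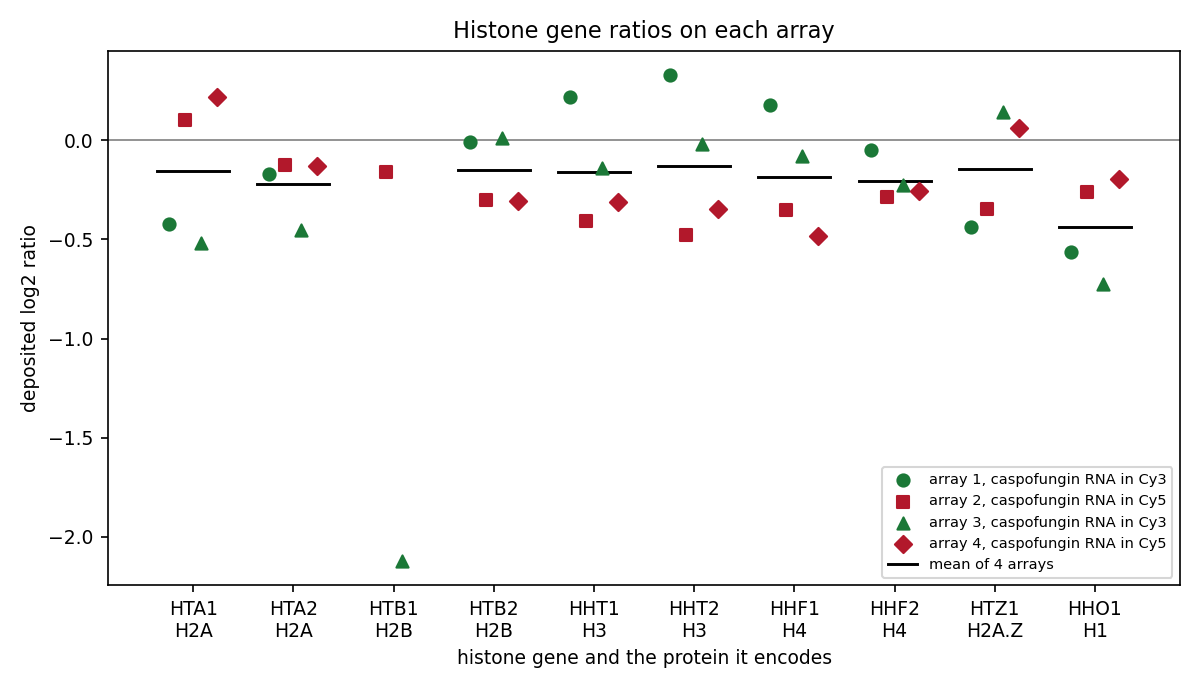
Deposited log2 ratio (y axis) of each histone gene (x axis) on each of the 4 arrays; marker shapes give the array and colours the dye of the caspofungin RNA, and black bars give the mean where all 4 values exist. The means lie between -0.44 and -0.13, H3 and H4 genes are lowest on the Cy5 arrays, HTA1 is lowest on the Cy3 arrays, and HTB1 has values on arrays 2 and 3 alone, the second of them at -2.12.

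The H2A genes differed in sign on the Cy5 arrays. HTA2 read -0.17, -0.12, -0.45 and -0.13 on arrays 1 to 4, with a mean of -0.22 ± 0.16 (SD, n = 4 arrays), which is 0.860-fold (limma, adjusted p = 0.236). It was negative on every array, and array 3 stood below the other values. HTA1 read -0.42, 0.10, -0.52 and 0.22, with a mean of -0.16 ± 0.37 (adjusted p = 0.340). HTA1 was positive on both arrays with caspofungin RNA in Cy5 and negative on both with it in Cy3. The difference HTA1 minus HTA2 was -0.25, 0.23, -0.07 and 0.35 on arrays 1 to 4.

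Of the H2B genes, HTB2 read -0.0065, -0.30, 0.013 and -0.31 on arrays 1 to 4, with a mean of -0.15 ± 0.18 (n = 4 arrays, limma, adjusted p = 0.346). Its ratios were thus near 0 on arrays 1 and 3 and about equally negative on arrays 2 and 4. HTB1 was blank on arrays 1 and 4 and read -0.16 on array 2 and -2.12 on array 3. HTB1 therefore has 1 value per dye orientation, the values lie 1.96 apart on the log2 scale, and it was not tested. Its divergent neighbour HTA1 did not share the low value: HTA1 minus HTB1 was 0.26 on array 2 and 1.60 on array 3.

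Of the H3 and H4 genes, HHT1, HHT2 and HHF1 had the same signs on every array. HHT1 read 0.22, -0.41, -0.14 and -0.31 on arrays 1 to 4 (mean -0.16 ± 0.28, SD, n = 4 arrays; limma, adjusted p = 0.364). HHT2 read 0.33, -0.48, -0.02 and -0.35 (mean -0.13 ± 0.36; adjusted p = 0.448). HHF1 read 0.18, -0.35, -0.08 and -0.48 (mean -0.18 ± 0.29; adjusted p = 0.287). In these genes array 1 was positive, array 3 was weakly negative, and arrays 2 and 4 were the most negative. HHF2 read -0.05, -0.29, -0.22 and -0.26 and varied least of the 9, with a mean of -0.20 ± 0.11 (adjusted p = 0.250). HHF2 was negative on every array.

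Within these pairs, the smallest differences were between the H3 paralogues and between the neighbours HHT1 and HHF1. HHT1 minus HHT2 was -0.11, 0.07, -0.12 and 0.04 on arrays 1 to 4, and HHT1 minus HHF1 was 0.04, -0.05, -0.06 and 0.17. The other H3 and H4 neighbours were less alike, with HHT2 minus HHF2 at 0.38, -0.19, 0.20 and -0.09. HHF1 minus HHF2 was 0.23, -0.06, 0.14 and -0.23, so the H4 paralogues differed in opposite senses in the dye orientations. HTA2 minus HTB2 was -0.16, 0.18, -0.46 and 0.17, again alternating with the dyes. Divergent neighbours with 4 values thus differed by up to 0.46 on an array, and no test was made of these differences.

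HHO1, the gene of linker histone H1, had the most negative mean of the 9 genes. It read -0.57, -0.26, -0.73 and -0.20 on arrays 1 to 4, with a mean of -0.44 ± 0.25 (SD, n = 4 arrays), which is 0.738-fold. It was negative on every array and more negative on the Cy3 arrays than on the Cy5 arrays. The unadjusted p was 0.00702 and the adjusted p 0.163 (limma), so it did not pass, and its widest 95% interval ran from -0.69 to -0.19. Of the 2925 genes, 5.16% had a lower mean. With each array centred on its median the mean was -0.32 and still negative on every array (adjusted p = 0.161). In the turned reading its mean was 0.21 ± 0.51, with signs that differed between arrays (adjusted p = 0.210).

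HTZ1, the H2A.Z gene, read -0.44, -0.35, 0.14 and 0.06 on arrays 1 to 4, with a mean of -0.15 ± 0.29 (n = 4 arrays). Arrays 1 and 2 were negative and arrays 3 and 4 positive, so the sign did not go with the dyes. One sign on arrays 1 and 2 and the other on arrays 3 and 4 was seen in 1.95% of the 2925 genes. Whether arrays 1 and 2 come from the same culture is not stated in the labels. The p for HTZ1 was 0.403 if they do and 0.194 if arrays 1 and 4 share one, both unadjusted (limma, adjusted p of the larger = 0.559). In the turned reading the mean was 0.00178.

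Of the 9 genes, 3 were negative on every array (HTA2, HHF2 and HHO1), beside 19.3% of all 2925 genes, and 0 were positive on every array, beside 6.87%. After each array was centred on its median over the 2925 genes, 2 of the 9 were negative on every array (HTA2 and HHO1), beside 8.72% of all genes. The medians removed were -0.10, -0.06, -0.22 and -0.07 on arrays 1 to 4. Centring moved the median of the histone means to -0.05, against -0.02 for all genes. Array 3 had the largest median removed: HHF2 there became -0.00354, and HHT1, HHT2 and HHF1 became positive.

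The histone ratios were also set out by dye orientation. The median of the 9 genes was -0.30 and -0.26 on arrays 2 and 4, with caspofungin RNA in Cy5, and -0.05 and -0.14 on arrays 1 and 3, with it in Cy3. On arrays 2 and 4, 8 and 7 of the 9 genes were below their array's median, against 4 on each of arrays 1 and 3. After centring, 4 genes (HTB2, HHT1, HHT2 and HHF1) were below 0 on both Cy5 arrays and above 0 on both Cy3 arrays, beside 20.3% of all genes. HTA1 alone of the 9 had the opposite pattern, beside 20.5% of all genes; it had it before centring too, beside 19.7%.

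The dye part of a gene was taken as the mean of its ratios after those of arrays 1 and 3 were given the opposite sign, so that a positive dye part means higher ratios on the Cy5 arrays. It was 0.32 for HTA1 and 0.21 for HHO1, and it was -0.28 for HHT2, -0.23 for HHF1, -0.20 for HHT1 and -0.15 for HTB2. Its size exceeded that of the mean ratio in HTA1, HTB2 and the 3 genes HHT1, HHT2 and HHF1. For a dye effect 0 of the 9 passed (limma, lowest adjusted p = 0.101, HTA1), beside 0% of all genes, while 32.3% of all genes had an unadjusted p under 0.05. Over all genes with 4 values, the SD was 0.327 for the mean ratio and 0.327 for the dye part. Pearson correlations were 0.65 and 0.79 between arrays of the same dye orientation, and -0.15, -0.03, -0.01 and 0.14 between arrays of opposite orientation. With arrays centred and scaled, HHT2 was 1 of the 9 that passed for a dye effect (adjusted p = 0.0477), beside 20.2% of all genes. HIS3 and LEU2, which carry a partial and a complete deletion in the BY4741 background, alternated in sign in the same way as HTA1. HIS3 read -0.63, 0.40, -0.64 and 0.39, and LEU2 read -0.58, 0.24, -0.64 and 0.25 on arrays 1 to 4. Beyond the limma test of each gene's dye part, how much of the histone ratios is dye bias was not tested.

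**Figure D2:**
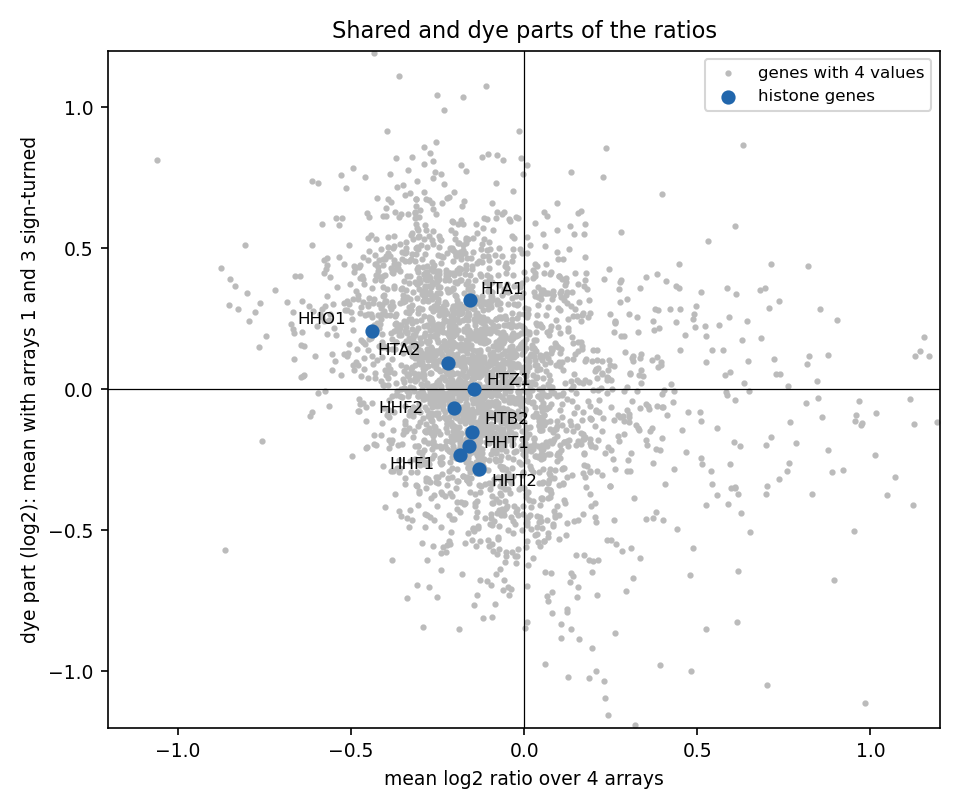
Mean log2 ratio over the 4 arrays (x axis) against the dye part (y axis, log2) for genes with 4 values (grey; 46 lie outside the axes) and the 9 histone genes (blue). HTA1 and HHO1 lie above 0 on the y axis, the H3 genes, HHF1 and HTB2 lie below it, and HHO1 is farthest left.

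In the turned reading 0 of the 9 histone genes passed either. The median of their means was -0.068 there, against 0.050 over all genes. That difference was -0.117, against -0.029 as deposited, and it was not tested. HTA1 would be positive on every array (0.42, 0.10, 0.52 and 0.22 on arrays 1 to 4, mean 0.32 ± 0.19, SD, n = 4 arrays), beside 19.7% of all genes, while 0 of the 9 would be negative on every array, beside 13.4%. HTA1 had an unadjusted p of 0.0215 and an adjusted p of 0.101 there (limma). HHT2 would read -0.33, -0.48, 0.02 and -0.35 (mean -0.28 ± 0.21, unadjusted p = 0.0443, adjusted p = 0.146). HHT1, HHF1 and HTB2 would have means of -0.20 ± 0.24, -0.23 ± 0.24 and -0.15 ± 0.17. The H3 genes, the H4 genes and HTB2 kept a negative mean in both readings, 5 of the 9 genes, beside 28.5% of all genes, whereas HTA1, HTA2, HTZ1 and HHO1 changed sign.

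**Figure D3:**
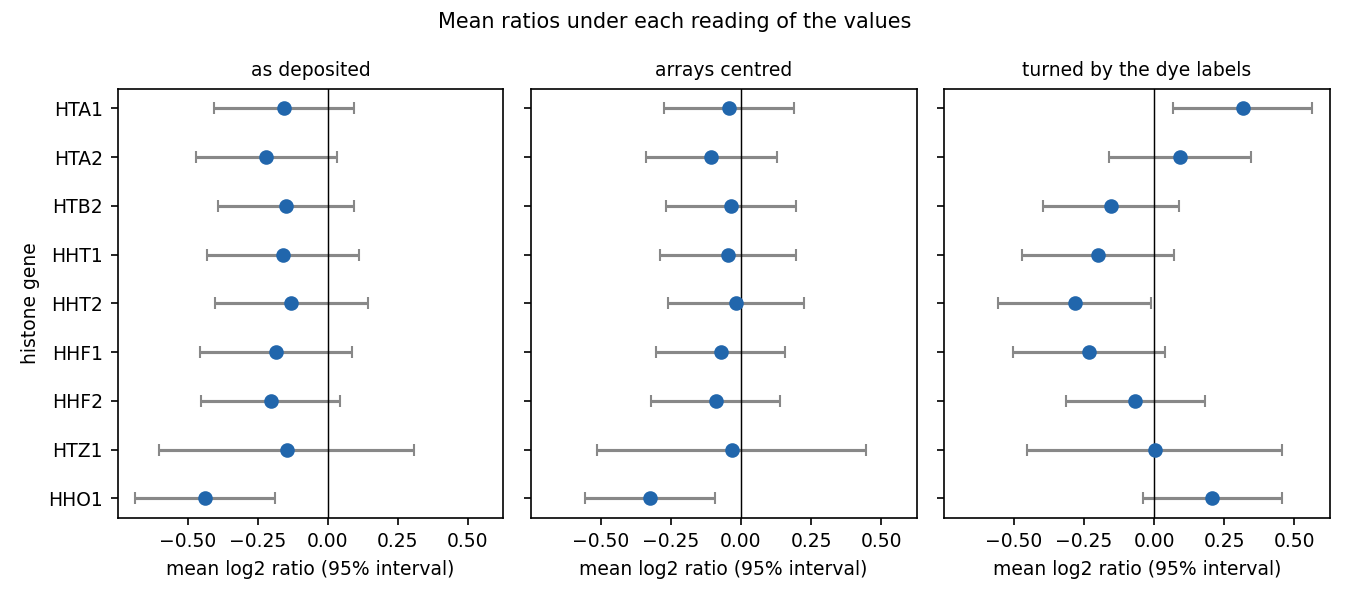
Mean log2 ratio of each histone gene (points) with the widest 95% interval of both array pairings (bars, limma), for values as deposited, with arrays centred and turned by the dye labels. The 9 means are negative in the first and second panels, and 5 are negative in the third, where HTA1 lies at 0.32.

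Genes that act on histones or on the S phase in which they are made were compared as lists, each by the genes with 4 values. Of 12 regulators of histone gene transcription 3 had 4 values and 0 passed. RAD53, the checkpoint kinase gene that also limits free histones, read -0.84, 0.23, -0.60 and 0.08, and YTA7 read -1.03, 0.20, -0.52 and 0.38. Both alternated with the dyes like HTA1, a pattern that 19.7% of all genes had as deposited. HPC2, of the HIR complex, had a mean of -0.01 ± 0.23 (SD, n = 4 arrays). The activator gene SWI4 had 3 values, -0.16, -0.75 and -0.14 on arrays 2, 3 and 4. HIR1, HIR2, HIR3, SPT10, SPT21 and SWI6 were blank on every array, as was CSE4, the gene of centromeric H3.

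Histone chaperones and assembly factors had 7 of 14 genes with 4 values, a median mean ratio of -0.17 against -0.13 over all genes, and 0 past the threshold. POB3, a subunit of the FACT complex that moves nucleosomes aside for polymerases, read -0.51, -0.40, -0.78 and -0.49 (mean -0.54 ± 0.17, limma, adjusted p = 0.163). RLF2, the large subunit of the CAF-1 assembly factor, had a mean of -0.29 ± 0.22 (adjusted p = 0.181). Both were negative on every array, 2 of the 7, beside 19.3% of all genes. Turned by the dye labels, POB3 had a mean of 0.10 and RLF2 of -0.18. SPT16, the partner of POB3 in FACT, went the other way on the 3 arrays where it had values: 1.00, 0.78 and 2.85 on arrays 1, 2 and 3. It was blank on array 4 and not tested, and it and the other genes of fewer than 4 values were named after their values were seen. ASF1, an H3 and H4 chaperone, read 1.16, -0.80, -0.21 and -0.87 on arrays 1 to 4. Its signs were those of HHT1, HHT2 and HHF1, and its values were larger in size. The share of all genes with these signs was not counted. CHZ1, a chaperone of H2A.Z, read 0.68, -0.59, 0.37 and -0.31, unlike HTZ1.

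Of 14 genes of the SWR1 complex, which exchanges H2A for H2A.Z, 6 had 4 values, with a median of -0.01 and 0 past the threshold. SWR1, its ATPase gene, had a mean of 0.23 ± 0.33 (SD, n = 4 arrays). RVB2, the gene of a helicase shared with other remodelers, had -0.29 ± 0.26 (limma, adjusted p = 0.184), and ARP4, an actin-related subunit, had -0.12 ± 0.15. Those 2 of the 6 were negative on every array, beside 19.3% of all genes, and 0 were after centring, beside 8.72%. Of 28 histone modifying enzymes 5 had 4 values, with a median of -0.09 and 0 past the threshold. BRE1 and RAD6, which together ubiquitinate H2B, read 0.65, -0.73, 0.46 and -0.61, and 0.60, -0.66, 0.31 and -0.62, alternating with the dyes in the same sense as the H3 genes after centring. HST2 and HST4, sirtuin deacetylase genes, alternated the other way, at -0.84, 0.43, -0.99 and 0.18, and at -0.11, 0.34, -0.29 and 0.31. After centring the 5 enzymes fell 3 to 2 between these senses, beside 20.3% and 20.5% of all genes. HAT2, a subunit of the acetyltransferase that acts on new H4, was negative on every array at -0.14 ± 0.12.

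**Figure D4:**
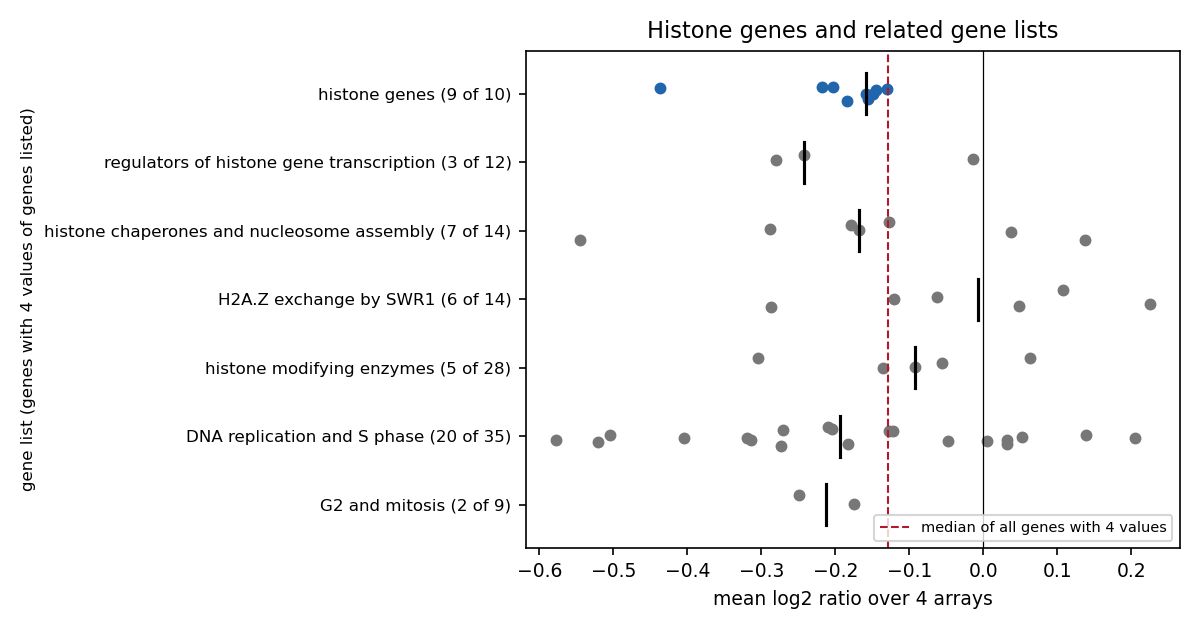
Mean log2 ratio over 4 arrays (x axis) of each gene with 4 values in the histone list (blue) and in 6 related lists (grey), with list medians as black bars and the median of all 2925 genes as a dashed line at -0.13. Histone genes other than HHO1 lie close to that line, and the replication list reaches -0.58.

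DNA replication and S phase genes had 20 of 35 genes with 4 values, a median of -0.19 against -0.13 over all genes, and 0 past the threshold. Of the 20, 9 were negative on every array, beside 19.3% of all genes, and 2 were positive on every array, beside 6.87%. After centring these were 5, beside 8.72%, and 3, beside 11%. In the turned reading the list's median changed sign to 0.077, against 0.05 over all genes, so these directions hold for the values as deposited. The most negative means as deposited were those of RFC4, a clamp loader subunit, at -0.58 ± 0.49 (SD, n = 4 arrays), RAD27, the flap endonuclease gene, at -0.52 ± 0.15 and RFC2, also a clamp loader subunit, at -0.50 ± 0.21 (limma, adjusted p = 0.163 for each). Turned, these means were 0.41, 0.13 and 0.16. The 2 genes positive on every array were RNR2 and RNR4, small subunit genes of ribonucleotide reductase, at 0.05 ± 0.04 and 0.20 ± 0.09. In the list of G2 and mitosis 2 of 9 genes had 4 values, and CLB3, a B-type cyclin gene, was negative on every array at -0.25 ± 0.11 (adjusted p = 0.191). Cell cycle phase was not measured, and 0 of the 9 histone genes passed. A changed share of cells in S phase and changed histone mRNA per S phase cell could not be told apart. Neither is shown by these ratios.

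The a-cell markers of this haploid strain were mostly measured, with 5 of 6 genes at 4 values. Of these 5, 4 were negative on every array, beside 19.3% of all genes, among them AGA2 at -0.85 ± 0.43 and MFA1 at -0.76 ± 0.29 (SD, n = 4 arrays; limma, adjusted p = 0.163 for both). In the turned reading the median of the 5 was 0.16, against -0.39 as deposited, and the means were 0.30 for AGA2 and -0.18 for MFA1. Of the alpha-cell and sporulation markers 0 of 4 and 1 of 5 had 4 values. The part of these in the histone ratios was not tested.

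The genes most like the histone genes were ranked by root mean square distance over 4 arrays from the median histone profile, which was -0.05, -0.30, -0.14 and -0.26. The nearest were YMR196W (distance 0.032), RPL19B (0.0437) and EDS1 (0.0439), followed by the ribosomal protein gene RPL21A (0.0448) and the acid phosphatase gene PHO3 (0.0453). RPL19B, which encodes a large subunit ribosomal protein, read -0.04, -0.35, -0.20 and -0.28. HHF2, at 0.0435, was the histone gene closest to the profile it helps to define, with 1 gene outside the list nearer. HTA1 was farthest at 0.409, above the median distance of all genes, 0.366. The likeness rests on 4 arrays that share their dye orientations and is a description.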

How the data were processed

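Total RNA was labelled with Cy3 and Cy5 and hybridised to 2-colour arrays, per the labels' protocols. The values are the authors' deposited log2 ratios, 1 per gene and array. Taken as powers of 2, 100% of values on each array give numbers of 4 decimals (tolerance 2e-06), which fixes the log base. Scanner intensities were not used here. For background correction, normalization, centring, blank cells and genome build, the method is not given in the sources used here. Direction is as stated in the report.

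Gene names came from RefSeq (R64). Genes with 4 values were fitted with limma 3.58.1 (R 4.3.3) on the means of 2 cultures against 0. Both pairings that join opposite dyes were fitted, the larger p was kept, and Benjamini-Hochberg adjustment ran over all 2925 genes with a threshold of 0.05. Dye effects were tested likewise on the dye part. The fit was run on simulated data whose changes were larger than any histone mean. Its power for ratios as small as the histone means was not tested. Alternatives were the turned reading, centring, scaling, at least 3 arrays, each pairing, arrays as units with a dye term, and each array left out. Lists were described by counts and medians. Named were the 10 histone genes, up to 2 genes per list with 1 sign on 4 arrays and the largest mean size, the 5 nearest genes, HIS3, LEU2, MID2 and HSP12; RFC2, RNR2, RNR4, RAD53, YTA7, HPC2, SWR1, ASF1, CHZ1, BRE1, RAD6, HST2, HST4 and genes with fewer values were chosen after their values were seen. YHR087W and YIL105C were also chosen after their values were seen. Members and lists were chosen with earlier results of these data known. The number of arrays limits the precision.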

Additional observations from a re-analysis of the deposited data

Results flagged for a closer look

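HTA2 was -0.45 on array 3, far from its 3 other values of -0.17, -0.12 and -0.13. The gap to the nearest value was 0.858 of the whole range, above Dixon's 95% critical value for 4 values. For independent, normally distributed values, chance gives such a gap in about 1 of 20 groups, and 1 of the 9 histone genes showed it. These arrays share cultures and dye orientations, so that rate is a rough guide. With each array centred on its median HTA2 read -0.069, -0.065, -0.230 and -0.058 on arrays 1 to 4, so array 3 still stood apart. Without array 3 the mean of HTA2 was -0.14, against -0.22 with it.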

How the results depend on the processing

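Past the adjusted threshold (limma) were 0 of the 9 histone genes under every alternative run, with a lowest adjusted p of 0.0537 (HHO1, arrays as units with a dye term, which counts arrays of 1 culture as separate). All 9 means kept their sign except in the turned reading, where HTA1, HTA2, HTZ1 and HHO1 had 0.32, 0.092, 0.00178 and 0.21. There 1 histone gene had 1 sign on every array (positive, beside 19.7% of all genes), against 3 as deposited (negative, beside 19.3%). Leaving out 1 array gave 3 to 6 such genes, all negative. The 6 came without array 1, which was positive for HHT1, HHT2 and HHF1. Without array 1, 30.6% of all genes were negative on every remaining array. That share was 23.4% to 26.8% without another array, against 19.3% with all 4 arrays. Over all genes the count past the threshold was 1 as deposited, 0 in the turned reading and with genes on at least 3 arrays, 10 with arrays centred, 48 with them also scaled, 148 when arrays 1 and 4, and 2 and 3, were paired, and 109 with arrays as units. It ran from 1 to 61 with 1 array left out (61 without array 1, 56 without array 3). For a dye effect 0 genes passed as deposited, 237 with arrays centred (0 histone genes, lowest adjusted p = 0.0716) and 590 when also scaled (1 histone gene, HHT2, adjusted p = 0.0477). The cause of these shifts was not tested. No block by replicate number could be fitted, because the arrays form 1 group and each ratio already sets both parts of a culture against each other. Without 1 array, a culture rests on 1 array whose dye part does not cancel.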
